A study of Homo sapiens with 12 samples.

Results

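The 45 genes described here encode the proteins of epithelial tight junctions, adherens junctions and desmosomes, the polarity and protease genes that work with them, and the ESRP, GRHL and OVOL regulators of the epithelial state. They were taken by name from the 60623 genes of the deposited count table, with earlier results of these data known, and all 45 had 1 identifier there. RNA was measured by poly-A RNA sequencing in SW480 and COLO320DM, 2 established human colorectal cancer cell lines, to look for changes in expression after the hexokinase gene HKDC1 was overexpressed. Both lines came from colon tumours, and COLO320DM is known as a poorly differentiated line that grows largely in suspension. There were 4 groups of 3 libraries each: SW480 with the HKDC1 plasmid, SW480 with empty vector, COLO320DM with the HKDC1 plasmid and COLO320DM with empty vector. The HKDC1 plasmid (pCMV6-HKDC1) drives the gene from the CMV promoter, and the empty vector (pCMV6-Entry) is the same backbone without it, so every library came from transfected cells and none from untransfected ones. Cells of all 4 groups had been transfected with 10 µg of plasmid over 24 h. Each line stands for itself only, and a difference between them is a difference between 2 lines.

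Epithelial cells are held together by several kinds of junction. Tight junctions seal the gap between cells with strands of claudins, occludin and related proteins, tied to the cytoskeleton by the ZO scaffolds and cingulin. Adherens junctions bind neighbouring cells through cadherins and their catenins, and desmosomes anchor intermediate filaments through desmogleins, desmocollins, plakophilins and plakins. Repressors of the ZEB and SNAI families bind E-box motifs and are known to lower CDH1 and other junction genes, while ESRP, GRHL and OVOL proteins are known to maintain the epithelial program.

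Total counts ranged from 33790733 to 45451279 per library. HKDC1 itself had 13600, 12200 and 14300 CPM (counts scaled to library size with TMM factors) in SW480 with the plasmid, against 38.4, 34.7 and 34.1 CPM with empty vector. COLO320DM had 6580, 9180 and 9640 CPM of HKDC1 with the plasmid and 0 to 1 counts per library with empty vector. Replicate 1 stood apart in every group: chi-squared per degree of freedom against replicates 2 and 3 of its group was 24.5 to 82.9, and 3.18 to 10.1 between replicates 2 and 3. In SW480, replicate 1 of both plasmid groups lay above all 4 other SW480 libraries for 23 of the 42 genes tested here (54.8%, against 27.1% of all 23684 genes tested) and below them for 8 (19.0%, against 28.4%). In COLO320DM it lay above for 8 (19.0%, against 20.5% of all genes tested) and below for 10 of the 42 (23.8%, against 21.3%). The part of replicate 1 in the results was not tested beyond the fits without it that are given beside them.

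Markers were read as a check of both lines. Among 10 genes of intestinal epithelium, KRT8, KRT18 and KRT19, the keratins of simple epithelia, averaged 3810, 2600 and 423 CPM in SW480 and 145, 94.7 and 0.0518 CPM in COLO320DM with the HKDC1 plasmid. HNF4A, a transcription factor of gut epithelium, averaged 89.8 CPM in SW480 and 0.0163 CPM in COLO320DM in the same groups. CDX2, the intestinal homeobox factor, went the other way, with 14.9 CPM in SW480 and 1500 CPM in COLO320DM. The 10 genes summed to 6130–9010 CPM per library in SW480 and 1580–1800 CPM in COLO320DM. Both lines carried RNA of single genes of other cell types. With the HKDC1 plasmid, LUM of stroma averaged 16.4 CPM in SW480 and 0.454 CPM in COLO320DM, CD68 of leukocytes 7.39 and 3.11 CPM, and VWF of endothelium 0.39 and 0.019 CPM. In the same groups COL3A1 of stroma averaged 0.00954 CPM in SW480 and 41.4 CPM in COLO320DM, and PTPRC of leukocytes 0.0163 and 33.8 CPM. CD3E was at the floor in both lines, with 1 count in SW480 and 0 in COLO320DM with the HKDC1 plasmid, and 2 in each with empty vector. The 8 stromal genes summed to 18.2–22.2 CPM in SW480 and 40.3–65.2 CPM in COLO320DM, and the 6 leukocyte genes to 6.97–13.1 and 35.2–45.8 CPM. In the same order, the 6 endothelial genes summed to 0.416–1.2 and 0.0471–0.278 CPM, and the 8 neuroendocrine genes to 60.4–80.9 and 27.8–39.4 CPM. ENO2 held most neuroendocrine counts, 7549 in SW480 and 3642 in COLO320DM with empty vector. SYP, INSM1, NEUROD1 and SCG3 were also higher in SW480 in that arm. CHGA (13 counts in SW480 against 43), CHGB (58 against 257) and SCG2 (7 against 12) were higher in COLO320DM. With the HKDC1 plasmid CHGA had 25 counts in each line. Fewer cells of a type and less RNA per cell cannot be told apart in such bulk libraries, and the part of these markers in the differences between the lines was not tested.

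The promoters of 3 genes are shown for the range of what was seen. AP1M2 was among the genes with almost no RNA in COLO320DM, CLDN7 was the claudin with the highest level per length in SW480, and TJP1 differed little between the lines. Each line of letters gives the 250 bases before the RefSeq start on GRCh38.p14, minus strand, read 5′ to 3′, and capitals mark CAGGTG or its reverse complement CACCTG, the E-box read by ZEB and SNAI factors.
AP1M2 (chr19:10587313-10587562): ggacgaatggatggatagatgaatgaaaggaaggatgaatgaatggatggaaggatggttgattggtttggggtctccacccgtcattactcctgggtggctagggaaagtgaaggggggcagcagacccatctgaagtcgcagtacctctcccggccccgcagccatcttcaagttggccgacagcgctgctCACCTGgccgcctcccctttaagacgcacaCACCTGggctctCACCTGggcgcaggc
CLDN7 (chr17:7263214-7263463): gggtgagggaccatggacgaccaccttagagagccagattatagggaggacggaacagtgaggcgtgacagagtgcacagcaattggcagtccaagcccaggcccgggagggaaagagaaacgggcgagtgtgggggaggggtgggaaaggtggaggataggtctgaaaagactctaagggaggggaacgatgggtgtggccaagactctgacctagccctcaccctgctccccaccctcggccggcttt
TJP1 (chr15:29969050-29969299): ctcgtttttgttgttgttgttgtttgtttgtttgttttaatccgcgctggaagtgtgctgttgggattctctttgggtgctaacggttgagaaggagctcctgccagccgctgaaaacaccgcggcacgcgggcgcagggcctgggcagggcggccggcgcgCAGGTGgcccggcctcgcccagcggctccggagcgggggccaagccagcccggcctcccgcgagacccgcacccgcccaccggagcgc

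The AP1M2 promoter held the E-box 3 times, the TJP1 promoter once and the CLDN7 promoter not at all in these letters. RefSeq promoter windows, 250 bases before to 50 after the start, were at hand for 26 of the 45 genes. On both strands, CAGGTG or CACCTG was found in 10 of the 26 (38.5%), against 20.6% of all 27305 promoter windows of that length. The 10 were CLDN3, CLDN18, OCLN, TJP1, DSP, DSG2, DSC2, CRB3, AP1M2 and RAB25, which include genes far higher in SW480, genes lower in SW480 and a gene with almost no RNA in either line. AACCGGTT, the GRHL motif, was in 0 of the 26 and in 0.117% of all windows. A match is a description of the letters and not a bound site.

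The comparison of SW480 with COLO320DM gave the main pattern. With the HKDC1 plasmid, 36 of the 42 genes tested were higher in SW480 and 3 were lower, and with empty vector 36 were higher and 4 were lower (edgeR's quasi-likelihood test, Benjamini-Hochberg adjusted p under 0.05). Over all 23684 genes tested, 37.4% were higher and 33.5% lower with the HKDC1 plasmid, and 37.3% were higher and 34.3% lower with empty vector. Differences between the lines are given throughout as log2 of the level in SW480 minus that in COLO320DM, with a standard error (SE) taken from the test, and for genes with few reads they depend on the prior count of the fit. The median log2 difference of the 42 genes was 2.85 with the HKDC1 plasmid and 2.71 with empty vector, against 0.0527 and 0.0386 over all genes tested. At least 2-fold higher were 31 of the 42 in each arm (23% of all genes with the HKDC1 plasmid and 23.3% with empty vector), and 1 was at least 2-fold lower (19.9% and 20.5% of all genes). At least 16-fold higher, a step chosen after the values were seen, were 18 with the HKDC1 plasmid and 17 with empty vector (9.75% and 9.82% of all genes). The 2 arms share no library, and 39 of the 42 genes were called the same way in both, with 0 called in opposite ways (66.4% and 0 of all genes tested).

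Counted over all 45 genes, every SW480 library lay above every COLO320DM library for 37 genes in each arm, and below for 3, CLDN18, CGN and DSG2. For CLDN2, RAB25, F11R, PKP2 and GRHL1 the libraries of the lines overlapped in both arms. Over all genes tested, the libraries did not overlap for 75.2% with the HKDC1 plasmid and 73.2% with empty vector. CLDN2, RAB25 and GRHL2 had too few counts for the test, so the 42 tested genes leave out those 3.

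**Figure D1:**
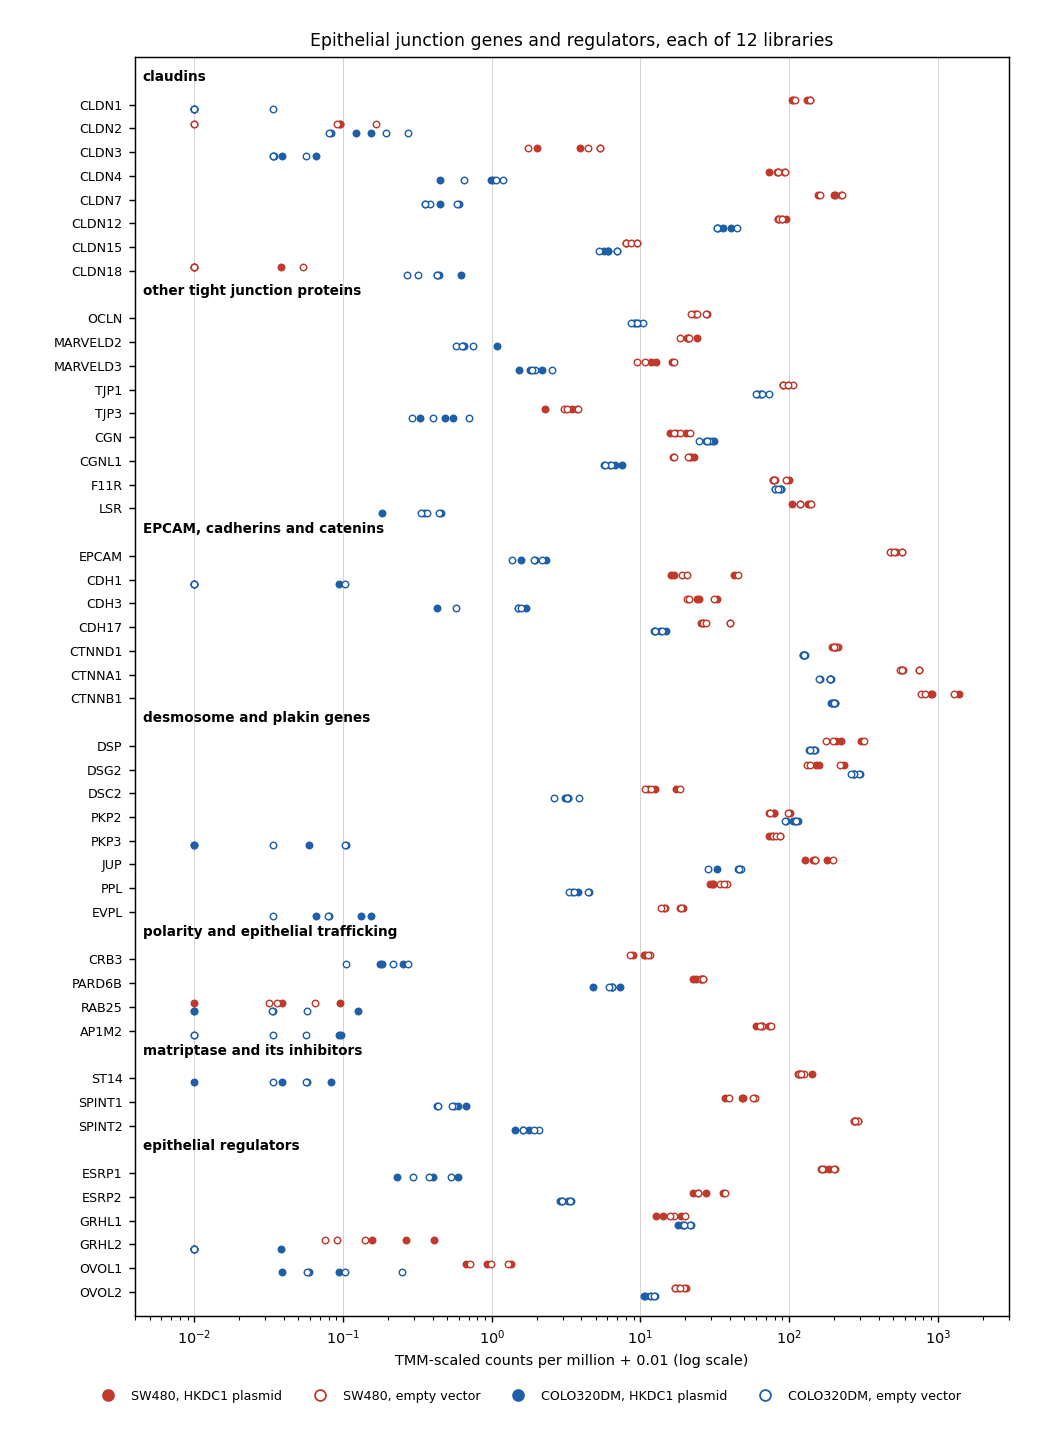
Scaled level of each of the 45 genes in each of the 12 libraries, as CPM plus 0.01 on a log axis, with genes grouped by role; filled points are HKDC1 plasmid libraries and open points empty vector libraries. SW480 points stand right of COLO320DM points for 37 genes, with CLDN1, CDH1, PKP3, AP1M2 and ST14 near 0 in COLO320DM.

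Claudins, the proteins that form tight junction strands, were mostly higher in SW480. Of the 8, 6 were higher in SW480 in both arms, CLDN18 was lower and CLDN2 was not tested. CLDN1, CLDN3, CLDN4 and CLDN7, the classic sealing claudins of epithelia, were each at least 16-fold higher, while CLDN12 and CLDN15 were closer in the lines. CLDN1, the claudin of many barrier epithelia, had 3707, 5383 and 3702 counts in SW480, against 0, 0 and 0 in COLO320DM with the HKDC1 plasmid. CLDN1 with empty vector had 4199, 5066 and 6280 counts in SW480, against 1, 0 and 0 in COLO320DM. SW480 thus held 105 to 138 CPM in every library, and COLO320DM 1 read in 6 libraries. CLDN1 was at least 4280-fold higher in SW480 with the HKDC1 plasmid, taking 3 counts as the floor of the COLO320DM group, and 16400-fold (95% counting interval 2950–649000) higher with empty vector.

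CLDN7, found along the whole lateral membrane of gut epithelium, stood at 157, 200 and 203 CPM in SW480, against 0.439, 0.588 and 0.347 CPM in COLO320DM with the HKDC1 plasmid. CLDN7 with empty vector stood at 162, 222 and 226 CPM in SW480, against 0.377, 0.572 and 0.347 CPM in COLO320DM. Both groups were far apart in each arm, and CLDN7 differed by 8.66 on the log2 scale with the HKDC1 plasmid (SE 0.23, edgeR adjusted p = 3.16e-12) and 8.87 with empty vector (SE 0.23, adjusted p = 2.39e-12). CLDN7 shares 10.8% of its exon bases with a same-strand gene, ENSG00000262302. That gene had 31381 counts over the 12 libraries, against 45575 for CLDN7, and how many reads they share is not known. CLDN3 had 70, 159 and 186 counts in SW480, against 1, 2 and 1 in COLO320DM with the HKDC1 plasmid. CLDN3 with empty vector had 67, 195 and 203 counts in SW480, against 1, 1 and 2 in COLO320DM. In SW480 its replicate 1 stood at 0.393 times the mean CPM of replicates 2 and 3, and CLDN3 still differed by 6.58 on the log2 scale with the HKDC1 plasmid (SE 0.65, edgeR adjusted p = 9.81e-07) and 6.80 with empty vector (SE 0.65, adjusted p = 6.16e-07). CLDN4 differed by 6.68 on the log2 scale with the HKDC1 plasmid (SE 0.24, edgeR adjusted p = 4.82e-11) and 6.51 with empty vector (SE 0.24, adjusted p = 4.44e-11). CLDN3 and CLDN4 are neighbours on chromosome 7, 29.3 kb apart.

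CLDN12, a broadly expressed claudin, averaged 89.6 ± 5.23 CPM in SW480 and 36.6 ± 3.69 CPM in COLO320DM with the HKDC1 plasmid, and 86.2 ± 3.29 and 36.6 ± 6.7 CPM with empty vector (SD, n = 3 each). It differed by 1.29 on the log2 scale with the HKDC1 plasmid (SE 0.12, edgeR adjusted p = 5.32e-07) and 1.23 with empty vector (SE 0.12, adjusted p = 7.8e-07). CLDN15, a pore-forming claudin of the intestine, averaged 8.46 ± 0.853 CPM in SW480 and 5.94 ± 0.205 CPM in COLO320DM with the HKDC1 plasmid, and 8.72 ± 0.791 and 6.38 ± 0.953 CPM with empty vector (SD, n = 3 each), and differed by 0.51 on the log2 scale with the HKDC1 plasmid (SE 0.14, edgeR adjusted p = 0.00587) and 0.45 with empty vector (SE 0.14, adjusted p = 0.0113). The call of CLDN15 with empty vector was lost without SW480 empty vector replicate 3 (0.38, adjusted p = 0.0522). CLDN18, known from stomach and lung, had 1, 0 and 0 counts in SW480, against 25, 15 and 15 in COLO320DM with the HKDC1 plasmid. CLDN18 with empty vector had 0, 0 and 2 counts in SW480, against 11, 13 and 18 in COLO320DM. All 6 COLO320DM libraries held more reads than any SW480 library, at levels under 1 CPM. CLDN18 was 54.8-fold lower in SW480 (95% counting interval 9.44–2210) with the HKDC1 plasmid and 19.9-fold lower (5.17–169) with empty vector, and the test called both (adjusted p = 4.61e-05 and 0.000245). CLDN2, a pore-forming claudin, had 0 to 6 counts per library in SW480 and 3 to 11 in COLO320DM.

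Per length of exon, the claudins of the lines were dominated by different genes. CLDN7 made up 49.1–54.7% of the summed claudin RPKM (counts scaled by exon length and library size) of the 8 genes in SW480 libraries and 1.71–2.93% in COLO320DM libraries. CLDN12 made up 7.67–9.81% in SW480 and 61.7–74.8% in COLO320DM, and CLDN15 1.8–2.19% and 20.6–30.4%. CLDN12 shares 5.2% of its exon bases with the same-strand gene GTPBP10 and 5.5% with ENSG00000273299. It shares a further 4.1% with PTTG1IP2 and 3.0% with CDK14, also on the same strand. Over the 12 libraries GTPBP10 had 24458, ENSG00000273299 1951, CDK14 7190 and PTTG1IP2 20 counts, against 29171 for CLDN12. How many reads of CLDN12 are shared with them is not known, so its counts and shares are uncertain. In RPKM over 6 libraries, CLDN7 averaged 78.3 ± 11.8 in SW480 and 0.179 ± 0.0441 in COLO320DM, and CLDN12 averaged 13.1 ± 0.645 and 5.45 ± 0.721 (SD, n = 6 each, both plasmid groups together). Together the 8 claudin genes gave 449–553 CPM per SW480 library and 41.4–51 CPM per COLO320DM library.

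**Figure D2:**
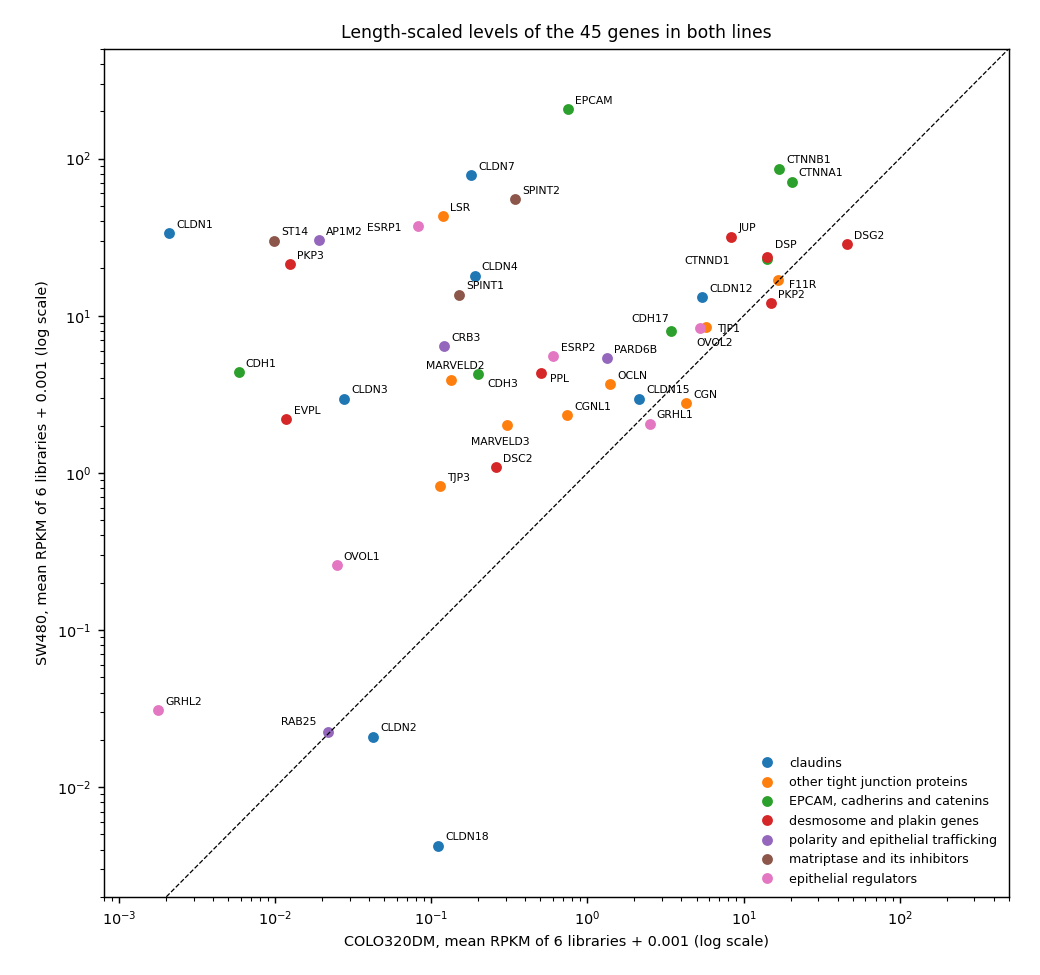
Mean RPKM over the 6 libraries of SW480 (vertical) against that of COLO320DM (horizontal) for each of the 45 genes, with 0.001 added, both axes logarithmic and the dashed line marking equal levels. EPCAM, CLDN7, SPINT2, LSR and ESRP1 lie above 30 RPKM in SW480 and under 1 in COLO320DM, while F11R, PKP2, DSG2, CGN and GRHL1 lie close to or below the line.

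Of the 9 other tight junction genes, 7 were higher in SW480 in both arms, CGN was lower and F11R was not called. LSR, which marks tricellular contacts and recruits tricellulin there, stood at 105, 119 and 134 CPM in SW480, against 0.341, 0.448 and 0.174 CPM in COLO320DM with the HKDC1 plasmid. LSR with empty vector stood at 118, 138 and 140 CPM in SW480, against 0.354, 0.429 and 0.324 CPM in COLO320DM. COLO320DM held 6 to 18 reads of LSR per library, and LSR differed by 8.51 on the log2 scale with the HKDC1 plasmid (SE 0.21, edgeR adjusted p = 1.6e-12) and 8.47 with empty vector (SE 0.20, adjusted p = 1.37e-12). MARVELD2, which encodes tricellulin, stood at 20.9, 23.9 and 20.4 CPM in SW480, against 0.634, 0.644 and 1.07 CPM in COLO320DM with the HKDC1 plasmid. MARVELD2 with empty vector stood at 18.3, 21 and 21.2 CPM in SW480, against 0.566, 0.62 and 0.741 CPM in COLO320DM. The partners at tricellular contacts were thus both far higher in SW480, and MARVELD2 differed by 4.80 on the log2 scale with the HKDC1 plasmid (SE 0.19, edgeR adjusted p = 1.17e-10) and 4.97 with empty vector (SE 0.19, adjusted p = 8.56e-11). TJP3 (ZO-3), a scaffold of epithelial junctions, stood at 2.27, 3.47 and 3.72 CPM in SW480, against 0.537, 0.476 and 0.318 CPM in COLO320DM with the HKDC1 plasmid. TJP3 with empty vector stood at 3.06, 3.19 and 3.78 CPM in SW480, against 0.283, 0.691 and 0.393 CPM in COLO320DM. TJP3 groups did not overlap, and it differed by 2.81 on the log2 scale with the HKDC1 plasmid (SE 0.32, edgeR adjusted p = 3.51e-06) and 2.87 with empty vector (SE 0.31, adjusted p = 2.28e-06).

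CGN (cingulin), a cytoplasmic linker of the tight junction to the cytoskeleton, stood at 20.1, 15.9 and 17.3 CPM in SW480, against 27.7, 31.1 and 30.3 CPM in COLO320DM with the HKDC1 plasmid. CGN with empty vector stood at 21.5, 18.4 and 16.9 CPM in SW480, against 24.7, 28.8 and 28 CPM in COLO320DM. Each COLO320DM library lay above each SW480 library, and CGN differed by −0.74 on the log2 scale with the HKDC1 plasmid (SE 0.12, edgeR adjusted p = 0.0001) and −0.52 with empty vector (SE 0.12, adjusted p = 0.00152). Its relative CGNL1 (paracingulin) went the other way, by 1.70 on the log2 scale with the HKDC1 plasmid (SE 0.12, edgeR adjusted p = 4.37e-08) and 1.61 with empty vector (SE 0.12, adjusted p = 7.31e-08). F11R (JAM-A), an immunoglobulin-like adhesion protein, stood at 100, 77.6 and 80.7 CPM in SW480, against 79.9, 88.1 and 88.3 CPM in COLO320DM with the HKDC1 plasmid. F11R with empty vector stood at 95.1, 78 and 78.9 CPM in SW480, against 80.1, 87.3 and 84.3 CPM in COLO320DM. The lines overlapped, with replicate 1 the highest library in SW480, and F11R differed by 0.01 on the log2 scale with the HKDC1 plasmid (SE 0.11, edgeR adjusted p = 0.931) and 0.00 with empty vector (SE 0.11, adjusted p = 0.99). Without replicate 1 of every group it was lower in SW480 with the HKDC1 plasmid (−0.17, adjusted p = 0.0137). A same-strand gene, ENSG00000270149, covers 36.6% of the F11R exon bases, so the F11R count is uncertain.

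OCLN (occludin) differed by 1.42 on the log2 scale with the HKDC1 plasmid (SE 0.12, edgeR adjusted p = 2.5e-07) and 1.37 with empty vector (SE 0.12, adjusted p = 3.19e-07). MARVELD3, another protein with the MARVEL fold, differed by 2.89 on the log2 scale with the HKDC1 plasmid (SE 0.24, edgeR adjusted p = 1.81e-07) and 2.56 with empty vector (SE 0.24, adjusted p = 4.56e-07), and 16.6% of its exon bases are shared with the antisense gene PHLPP2. TJP1 (ZO-1), the scaffold found in most cell types, averaged 93.3 ± 4.47 CPM in SW480 and 63.1 ± 2.34 CPM in COLO320DM with the HKDC1 plasmid, and 98.2 ± 7.62 and 66.3 ± 6.58 CPM with empty vector (SD, n = 3 each). The smallest difference among the called genes of this role was that of TJP1 on the higher side, by 0.57 on the log2 scale with the HKDC1 plasmid (SE 0.09, edgeR adjusted p = 0.000101) and 0.57 with empty vector (SE 0.09, adjusted p = 9.22e-05). F11R made up 54.7–57.8% of the summed RPKM of the 9 genes in COLO320DM, and LSR 44.6–55.4% in SW480.

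All 7 genes of EPCAM, cadherins and catenins were higher in SW480 in both arms. EPCAM, the epithelial adhesion protein used to sort carcinoma cells, stood at 576, 519 and 486 CPM in SW480, against 2.32, 1.57 and 1.94 CPM in COLO320DM with the HKDC1 plasmid. EPCAM with empty vector stood at 572, 474 and 506 CPM in SW480, against 1.91, 1.36 and 2.18 CPM in COLO320DM. At 207 RPKM over 6 SW480 libraries it had the highest level per length of the 45 genes there, against 0.745 RPKM in COLO320DM, and it differed by 8.08 on the log2 scale with the HKDC1 plasmid (SE 0.20, edgeR adjusted p = 1.61e-12) and 8.15 with empty vector (SE 0.20, adjusted p = 1.47e-12). CDH1 (E-cadherin), the cadherin of epithelial adherens junctions, had 1504, 660 and 584 counts in SW480, against 0, 3 and 0 in COLO320DM with the HKDC1 plasmid. CDH1 with empty vector had 1737, 692 and 934 counts in SW480, against 0, 0 and 4 in COLO320DM. The 6 COLO320DM libraries held 7 reads in all, and in SW480 replicate 1 of both groups was 2.43 times as high as replicates 2 and 3 (43.9 against 18.1 CPM). CDH1 was 919-fold (95% counting interval 314–4460) higher in SW480 with the HKDC1 plasmid and 889-fold (95% counting interval 347–3260) higher with empty vector, and CDH1 was called in both arms (adjusted p = 2.29e-07 and 1.51e-07). CDH3 (P-cadherin), 14.7 kb from CDH1 on chromosome 16, stood at 32.6, 24 and 24.6 CPM in SW480, against 0.415, 1.48 and 1.68 CPM in COLO320DM with the HKDC1 plasmid. CDH3 with empty vector stood at 31.3, 20.6 and 21.3 CPM in SW480, against 0.566, 1.5 and 1.57 CPM in COLO320DM. It differed by 4.52 on the log2 scale with the HKDC1 plasmid (SE 0.41, edgeR adjusted p = 4.13e-07) and 4.32 with empty vector (SE 0.40, adjusted p = 5.11e-07), with no overlap between the lines.

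The remaining members of this role were expressed in both lines. CDH17 (LI-cadherin), a cadherin of intestinal epithelium, averaged 30.6 ± 8.08 CPM in SW480 and 13.7 ± 1.11 CPM in COLO320DM with the HKDC1 plasmid, and 31.4 ± 7.64 and 12.9 ± 0.852 CPM with empty vector (SD, n = 3 each), and differed by 1.16 on the log2 scale with the HKDC1 plasmid (SE 0.19, edgeR adjusted p = 9.76e-05) and 1.28 with empty vector (SE 0.19, adjusted p = 3.87e-05). CTNNB1 (β-catenin), which links cadherins to α-catenin and also acts in WNT signalling, averaged 1070 ± 284 CPM in SW480 and 196 ± 6.26 CPM in COLO320DM with the HKDC1 plasmid, and 960 ± 278 and 200 ± 3.51 CPM with empty vector (SD, n = 3 each), and differed by 2.45 on the log2 scale with the HKDC1 plasmid (SE 0.20, edgeR adjusted p = 1.5e-07) and 2.26 with empty vector (SE 0.20, adjusted p = 2.94e-07). CTNNA1 (α-catenin), the link to actin, differed by 1.81 on the log2 scale with the HKDC1 plasmid (SE 0.14, edgeR adjusted p = 1.11e-07) and 1.82 with empty vector (SE 0.14, adjusted p = 1.02e-07). CTNND1 (p120 catenin), which binds the cadherin tail near the membrane, differed by 0.70 on the log2 scale with the HKDC1 plasmid (SE 0.07, edgeR adjusted p = 1.48e-06) and 0.69 with empty vector (SE 0.07, adjusted p = 1.72e-06). CTNND1 shares 3.6% and 3.3% of its exon bases with the same-strand genes ENSG00000254462 and ENSG00000254732. Over the 12 libraries these had 14491 and 14156 counts, against 76847 for CTNND1. Per length, CTNNA1 and CTNNB1 averaged 71.4 and 86.2 RPKM in SW480 and 20.3 and 16.8 RPKM in COLO320DM. The catenins thus stood at well over 10 RPKM in COLO320DM, where CDH1 had 7 reads.

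**Figure D3:**
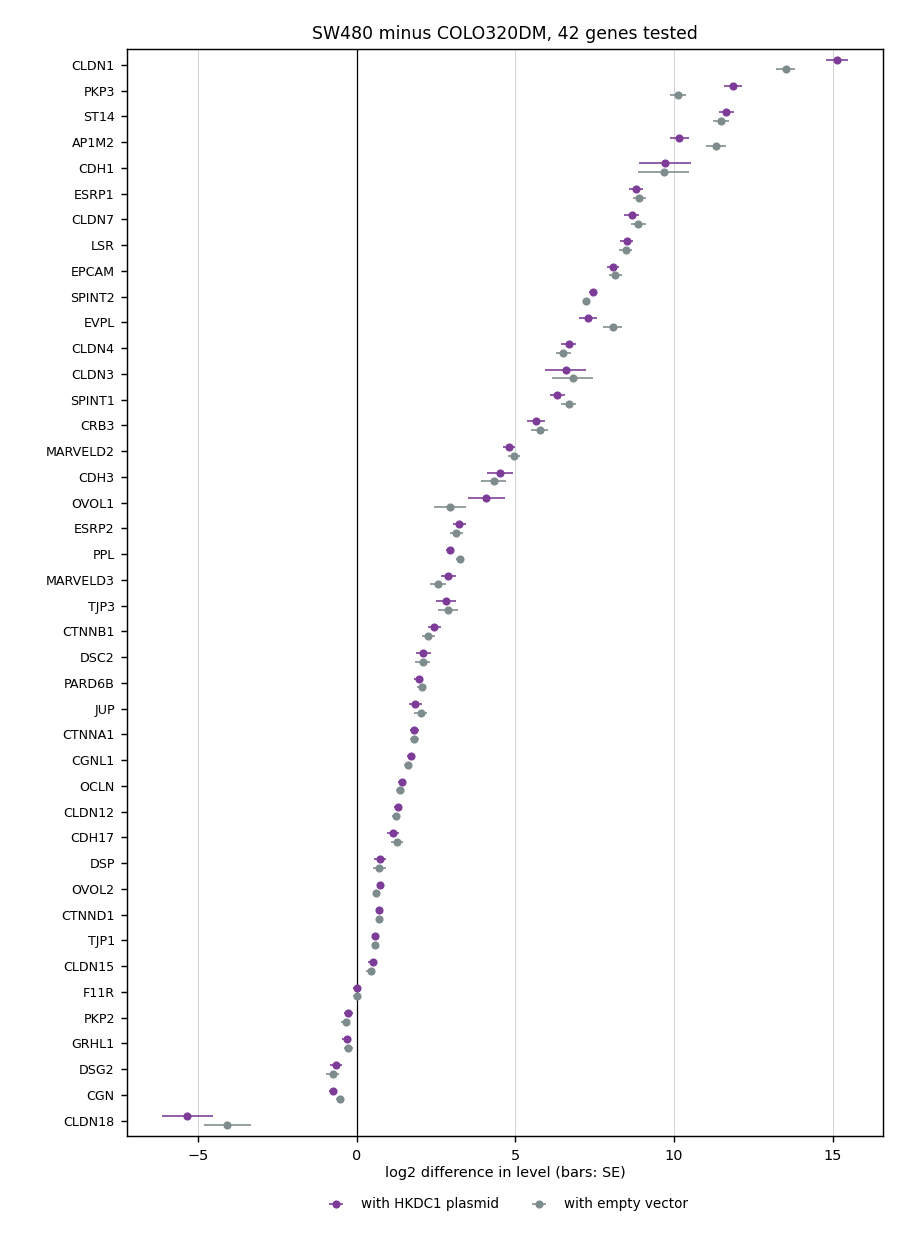
Log2 difference in level, SW480 minus COLO320DM, for the 42 genes tested, with bars of 1 standard error, in HKDC1 plasmid libraries and in empty vector libraries. CLDN1, PKP3, AP1M2 and ST14 lie above 10 in both arms, F11R lies at 0, and CLDN18, CGN, DSG2, PKP2 and GRHL1 lie below 0 in both.

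Desmosome and plakin genes were mixed. With the HKDC1 plasmid 6 of the 8 were higher in SW480 and DSG2 was lower, and with empty vector 6 were higher while DSG2 and PKP2 were lower. PKP3, a plakophilin of simple and stratified epithelia, had 2676, 2996 and 3011 counts in SW480, against 2, 0 and 0 in COLO320DM with the HKDC1 plasmid. PKP3 with empty vector had 3008, 3011 and 3927 counts in SW480, against 1, 4 and 4 in COLO320DM. COLO320DM held 0 to 4 reads per library, and PKP3 was 4350-fold (95% counting interval 1200–36000) higher in SW480 with the HKDC1 plasmid and 1170-fold (95% counting interval 615–2560) higher with empty vector. EVPL (envoplakin), a plakin known from epithelial cornified envelopes, had 674, 602 and 640 counts in SW480, against 5, 2 and 5 in COLO320DM with the HKDC1 plasmid. EVPL with empty vector had 716, 524 and 624 counts in SW480, against 3, 1 and 3 in COLO320DM. The lines were far apart, and EVPL was 160-fold (95% counting interval 91.4–310) higher in SW480 with the HKDC1 plasmid and 281-fold (95% counting interval 136–701) higher with empty vector. PPL (periplakin), its partner, stood at 30.8, 29.4 and 30.6 CPM in SW480, against 3.46, 4.48 and 3.82 CPM in COLO320DM with the HKDC1 plasmid. PPL with empty vector stood at 34, 38.3 and 36.5 CPM in SW480, against 3.3, 4.43 and 3.59 CPM in COLO320DM. PPL differed by 2.95 on the log2 scale with the HKDC1 plasmid (SE 0.13, edgeR adjusted p = 3.74e-10) and 3.26 with empty vector (SE 0.13, adjusted p = 1.42e-10).

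DSG2, the desmoglein of simple epithelia, stood at 234, 159 and 151 CPM in SW480, against 299, 275 and 272 CPM in COLO320DM with the HKDC1 plasmid. DSG2 with empty vector stood at 220, 131 and 138 CPM in SW480, against 295, 274 and 261 CPM in COLO320DM. COLO320DM was the higher line in each arm without overlap, and DSG2 differed by −0.64 on the log2 scale with the HKDC1 plasmid (SE 0.19, edgeR adjusted p = 0.00971) and −0.76 with empty vector (SE 0.19, adjusted p = 0.00315). It had the highest level per length of the 45 genes in COLO320DM, at 46.1 RPKM against 28.4 RPKM in SW480. PKP2, the plakophilin that DSG2 and DSP bind in simple epithelia and heart, stood at 102, 79 and 79.5 CPM in SW480, against 95.1, 114 and 106 CPM in COLO320DM with the HKDC1 plasmid. PKP2 with empty vector stood at 98.5, 73.5 and 74.6 CPM in SW480, against 94.2, 110 and 111 CPM in COLO320DM. SW480 replicate 1 fell among the COLO320DM libraries, and PKP2 differed by −0.27 on the log2 scale with the HKDC1 plasmid (SE 0.14, edgeR adjusted p = 0.0902) and −0.35 with empty vector (SE 0.14, adjusted p = 0.0335). The empty vector call of PKP2 was lost without replicate 2 or 3 of either empty vector group (adjusted p = 0.0901 to 0.106). With the HKDC1 plasmid PKP2 was called lower without replicate 1 of every group (−0.48, adjusted p = 1.47e-08). DSC2, the desmocollin that pairs with DSG2, differed by 2.1 on the log2 scale with the HKDC1 plasmid (SE 0.23, edgeR adjusted p = 2.75e-06) and 2.08 with empty vector (SE 0.23, adjusted p = 2.61e-06). JUP (plakoglobin), shared by desmosomes and adherens junctions, differed by 1.85 on the log2 scale with the HKDC1 plasmid (SE 0.21, edgeR adjusted p = 3.12e-06) and 2.02 with empty vector (SE 0.21, adjusted p = 1.33e-06), and DSP (desmoplakin), the plakin of every desmosome, by 0.75 on the log2 scale with the HKDC1 plasmid (SE 0.19, edgeR adjusted p = 0.00319) and 0.72 with empty vector (SE 0.19, adjusted p = 0.00404). DSG2 and DSC2 lie 395.7 kb apart on chromosome 18 and went in opposite directions.

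Of the 4 genes of polarity and epithelial trafficking, 3 were higher in SW480 in both arms and RAB25 was not tested. AP1M2, the subunit that gives the AP-1B complex of basolateral sorting its epithelial form, had 2579, 2437 and 2279 counts in SW480, against 0, 3 and 3 in COLO320DM with the HKDC1 plasmid. AP1M2 with empty vector had 2887, 2414 and 2911 counts in SW480, against 0, 1 and 2 in COLO320DM. In COLO320DM each library held 0 to 3 reads, and AP1M2 was 1220-fold (95% counting interval 560–3320) higher in SW480 with the HKDC1 plasmid and 2890-fold (95% counting interval 990–14000) higher with empty vector. CRB3, the crumbs protein of the epithelial apical membrane, had 311, 441 and 368 counts in SW480, against 10, 6 and 6 in COLO320DM with the HKDC1 plasmid. CRB3 with empty vector had 329, 424 and 508 counts in SW480, against 4, 11 and 9 in COLO320DM. CRB3 differed by 5.65 on the log2 scale with the HKDC1 plasmid (SE 0.27, edgeR adjusted p = 6.36e-10) and 5.77 with empty vector (SE 0.27, adjusted p = 4.42e-10). PARD6B, of the apical PAR complex, stood at 22.4, 25.6 and 23.8 CPM in SW480, against 7.27, 4.79 and 6.4 CPM in COLO320DM with the HKDC1 plasmid. PARD6B with empty vector stood at 25.6, 26.5 and 26.5 CPM in SW480, against 6.46, 6.43 and 6.09 CPM in COLO320DM. It differed by 1.96 on the log2 scale with the HKDC1 plasmid (SE 0.14, edgeR adjusted p = 2.79e-08) and 2.05 with empty vector (SE 0.14, adjusted p = 1.6e-08), the smallest difference of the 3. RAB25, a GTPase of apical recycling in epithelia, had 0 to 3 counts per library in SW480 and 0 to 4 in COLO320DM, so a difference was not detectable at this depth.

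The membrane protease matriptase and both of its inhibitors were higher in SW480 in both arms. ST14, which encodes matriptase, had 4192, 4708 and 4961 counts in SW480, against 3, 0 and 1 in COLO320DM with the HKDC1 plasmid. ST14 with empty vector had 4847, 4281 and 5514 counts in SW480, against 2, 1 and 2 in COLO320DM. COLO320DM held 0 to 3 reads per library, and ST14 was 3470-fold (95% counting interval 1360–12800) higher in SW480 with the HKDC1 plasmid and 3100-fold (95% counting interval 1330–9530) higher with empty vector. SPINT2 (HAI-2), an inhibitor of matriptase, stood at 291, 272 and 279 CPM in SW480, against 1.78, 1.62 and 1.42 CPM in COLO320DM with the HKDC1 plasmid. SPINT2 with empty vector stood at 291, 275 and 279 CPM in SW480, against 1.6, 2.07 and 1.9 CPM in COLO320DM. It varied little among SW480 libraries and differed by 7.44 on the log2 scale with the HKDC1 plasmid (SE 0.13, edgeR adjusted p = 3e-13) and 7.24 with empty vector (SE 0.12, adjusted p = 3.31e-13). SPINT1 (HAI-1), the cognate inhibitor, stood at 37, 47.9 and 49.3 CPM in SW480, against 0.585, 0.42 and 0.666 CPM in COLO320DM with the HKDC1 plasmid. SPINT1 with empty vector stood at 39.4, 59.2 and 57 CPM in SW480, against 0.424, 0.548 and 0.532 CPM in COLO320DM. SPINT1 differed by 6.32 on the log2 scale with the HKDC1 plasmid (SE 0.23, edgeR adjusted p = 4.27e-11) and 6.68 with empty vector (SE 0.23, adjusted p = 2.58e-11). SPINT2 shares 12.2% of its exon bases with an antisense gene, ENSG00000286037, and 4.8% with a same-strand gene, ENSG00000267748. Over the 12 libraries these had 48473 and 35516 counts, against 65518 for SPINT2.

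Of the 6 epithelial regulators, 4 were higher in SW480 in both arms, GRHL1 was not called in either and GRHL2 was not tested. ESRP1, the splicing factor of epithelial exons, stood at 171, 184 and 163 CPM in SW480, against 0.22, 0.392 and 0.579 CPM in COLO320DM with the HKDC1 plasmid. ESRP1 with empty vector stood at 166, 202 and 201 CPM in SW480, against 0.518, 0.286 and 0.37 CPM in COLO320DM. It was the highest of the 6 per length in SW480 (37.2 RPKM, against 0.0809 RPKM in COLO320DM) and differed by 8.79 on the log2 scale with the HKDC1 plasmid (SE 0.22, edgeR adjusted p = 2.02e-12) and 8.91 with empty vector (SE 0.22, adjusted p = 1.67e-12). Its paralog ESRP2 stood at 36.1, 22.4 and 27.5 CPM in SW480, against 3.24, 2.86 and 2.98 CPM in COLO320DM with the HKDC1 plasmid. ESRP2 with empty vector stood at 37.1, 24.2 and 24.2 CPM in SW480, against 3.39, 2.96 and 3.36 CPM in COLO320DM. The ESRP2 count thus stood at about 3 CPM in COLO320DM, and it differed by 3.24 on the log2 scale with the HKDC1 plasmid (SE 0.21, edgeR adjusted p = 1.39e-08) and 3.14 with empty vector (SE 0.21, adjusted p = 1.61e-08). ESRP2 shares 4.4% of its exon bases with the antisense gene NFATC3 and 2.2% with the same-strand gene ENSG00000262160. Both had more counts than ESRP2, so its low count in COLO320DM may hold reads of these genes. OVOL1, a zinc finger repressor of ZEB genes, had 47, 27 and 32 counts in SW480, against 2, 3 and 1 in COLO320DM with the HKDC1 plasmid. OVOL1 with empty vector had 49, 36 and 32 counts in SW480, against 2, 10 and 4 in COLO320DM. These are low counts in both lines, and OVOL1 differed by 4.09 on the log2 scale with the HKDC1 plasmid (SE 0.57, edgeR adjusted p = 2.73e-05) and 2.94 with empty vector (SE 0.49, adjusted p = 0.000113), with 27.3% of its exon bases shared with an antisense gene. OVOL2, its relative, averaged 18.3 ± 1.63 CPM in SW480 and 10.9 ± 0.518 CPM in COLO320DM with the HKDC1 plasmid, and 18.4 ± 1.35 and 12.2 ± 0.391 CPM with empty vector (SD, n = 3 each), and differed by 0.75 on the log2 scale with the HKDC1 plasmid (SE 0.10, edgeR adjusted p = 2.56e-05) and 0.60 with empty vector (SE 0.10, adjusted p = 0.00018).

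GRHL1, a grainyhead factor, stood at 18.7, 14.1 and 12.7 CPM in SW480, against 18, 18.9 and 19.5 CPM in COLO320DM with the HKDC1 plasmid. GRHL1 with empty vector stood at 19.8, 16.9 and 15.7 CPM in SW480, against 21.8, 21.4 and 19.7 CPM in COLO320DM. The lines overlapped and GRHL1 differed by −0.31 on the log2 scale with the HKDC1 plasmid (SE 0.14, edgeR adjusted p = 0.0632) and −0.27 with empty vector (SE 0.14, adjusted p = 0.0996). Without replicate 1 of every group it was called lower in SW480 in both arms (−0.52, edgeR adjusted p = 7.14e-06 with the HKDC1 plasmid, and −0.33, adjusted p = 0.0014 with empty vector). GRHL1 was also called lower with a replicate block shared by both lines (−0.32, edgeR adjusted p = 0.0198 and −0.27, adjusted p = 0.041). That block pairs numbers between the lines, which their low correlation does not back. GRHL2, the grainyhead factor best known for CDH1 and claudin control, had 9, 6 and 14 counts in SW480, against 0, 1 and 0 in COLO320DM with the HKDC1 plasmid. GRHL2 with empty vector had 5, 3 and 3 counts in SW480, against 0, 0 and 0 in COLO320DM. It was thus close to the floor in both lines, including SW480, where CDH1 had 584 to 1737 and CLDN4 2875 to 3853 counts per library. GRHL2 was 29.1-fold higher in SW480 (95% counting interval 4.82–1190) with the HKDC1 plasmid and at least 3.88-fold higher with empty vector, taking the same floor of 3 counts for a group at 0. In COLO320DM, OVOL2 made up 61.1–63.4% and GRHL1 28.1–30.9% of the summed RPKM of the 6 regulators, against 64.2–73.7% for ESRP1 in SW480.

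Genes of the same pathways outside the 45 were read from 7 further lists of 90 genes, of which 67 could be tested. In empty vector libraries 31 were higher in SW480 and 26 lower, with a median log2 difference of 0.21. Over all genes tested in that arm, 37.3% were higher and 34.3% lower, with a median of 0.0386. These shares also stand beside each of the list counts that follow. The split between higher and lower differed from list to list, which was not tested. Of 16 other claudins 6 were tested, 5 were higher and 0 lower by edgeR at adjusted p under 0.05, and in summed counts CLDN9 was 108-fold (95% counting interval 18.9–4300) and CLDN23, named after its values were seen, 44.4-fold (7.54–1790) higher in SW480. CLDN16, with 0 counts in COLO320DM, was at least 18.7-fold higher, so its place beside them is not known. Of 8 other desmosome genes 7 were tested: PKP1 (3.34) and PERP (2.67) were the furthest apart of 3 that were higher, and DSC1 (−7.78) and DSG4 (−6.10) of 4 that were lower. DSC1 and DSG4 are desmosomal cadherins known from skin and hair, and DSC1 averaged 0.0781 CPM in SW480 and 18.8 CPM in COLO320DM. SW480 held 4 reads of DSG4 with empty vector, and in summed counts DSG4 was 75.2-fold (counting interval 29.1–278) lower in SW480.

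Among 12 other cadherins and catenins, CDH13 (9.19) was the 1 gene higher of 6 tested. CTNNA3 (−5.05) and CTNNA2 (−2.45), α-catenins of heart and neurons, led 4 that were lower. COLO320DM held 3 reads of CDH13 with empty vector, and in summed counts CDH13 was 665-fold (counting interval 227–3230) higher in SW480. SW480 held 1 read of CTNNA3 in that arm, which was 45.4-fold (7.77–1830) lower there. Of 19 other tight and adherens junction genes 18 were tested, with 9 higher and 5 lower. NECTIN4, a nectin of epithelia, differed by 6.72 on the log2 scale. ESAM (−5.11), an adhesion protein of endothelium, and MPDZ (−4.45), a tight junction scaffold, were lower. Of 15 other polarity genes, 5 were higher and 8 lower, with LLGL2 (3.03) and PRKCZ (1.36) on the higher side. CRB1 (−5.41) and CRB2 (−2.55), the paralogs of CRB3, were on the lower side. SW480 held 3 reads of CRB1 with empty vector, and in summed counts CRB1 was 47.9-fold (counting interval 16.1–235) lower in SW480.

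Among repressors of epithelial genes, ZEB2, TCF4 and ZEB1 went furthest the other way from the 45 genes. Of 8 on the list 6 were tested, 4 were lower in SW480 and SNAI2 was higher with empty vector (34.3% and 37.3% of all genes). TCF3 and SNAI1, named after their values were seen, differed little. In summed counts with empty vector they were 1.39-fold (95% counting interval 1.35–1.42) and 1.13-fold (1.06–1.2) lower in SW480. ZEB2, a repressor of CDH1, averaged 0.0368 CPM in SW480 and 60.6 CPM in COLO320DM with the HKDC1 plasmid, and 0.00733 and 67.3 CPM with empty vector. It was 1690-fold lower in SW480 (95% counting interval 658–6190) with the HKDC1 plasmid and 8120-fold lower (1460–321000) with empty vector. TCF4, an E-box factor, averaged 0.671 CPM in SW480 and 181 CPM in COLO320DM with empty vector (log2 difference −8.06, SE 0.38, edgeR adjusted p = 5.52e-10). SNAI2 (Slug) averaged 11.4 CPM in SW480 and 0.00794 CPM in COLO320DM with empty vector (log2 difference 10.01, SE 0.49, edgeR adjusted p = 8.03e-10). COLO320DM held 1 read of SNAI2 in that arm, and in summed counts SNAI2 was 1470-fold (95% counting interval 263–57900) higher in SW480. ZEB1, named after its values were seen, averaged 12.3 CPM in SW480 and 44.9 CPM in COLO320DM with empty vector (−1.86, SE 0.13, edgeR adjusted p = 3.61e-08). Whether these factors act on the junction genes was not tested.

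Other epithelial regulators and proteases stood with the 45 genes: of 12 listed, 9 were tested, 7 were higher and TP63 (−3.21), a factor of stratified epithelia, was lower. TMPRSS2, a membrane serine protease of gut and prostate epithelium, was at least 1360-fold higher in SW480 with the HKDC1 plasmid and at least 1590-fold higher with empty vector. EHF, an ETS factor of epithelia, averaged 54.2 CPM in SW480 and 0.0233 CPM in COLO320DM with empty vector. Its log2 difference was 10.99 (SE 0.41, edgeR adjusted p = 5.49e-11). COLO320DM held 3 reads of EHF in that arm, and in summed counts EHF was 2310-fold (counting interval 790–11200) higher in SW480.

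**Figure D4:**
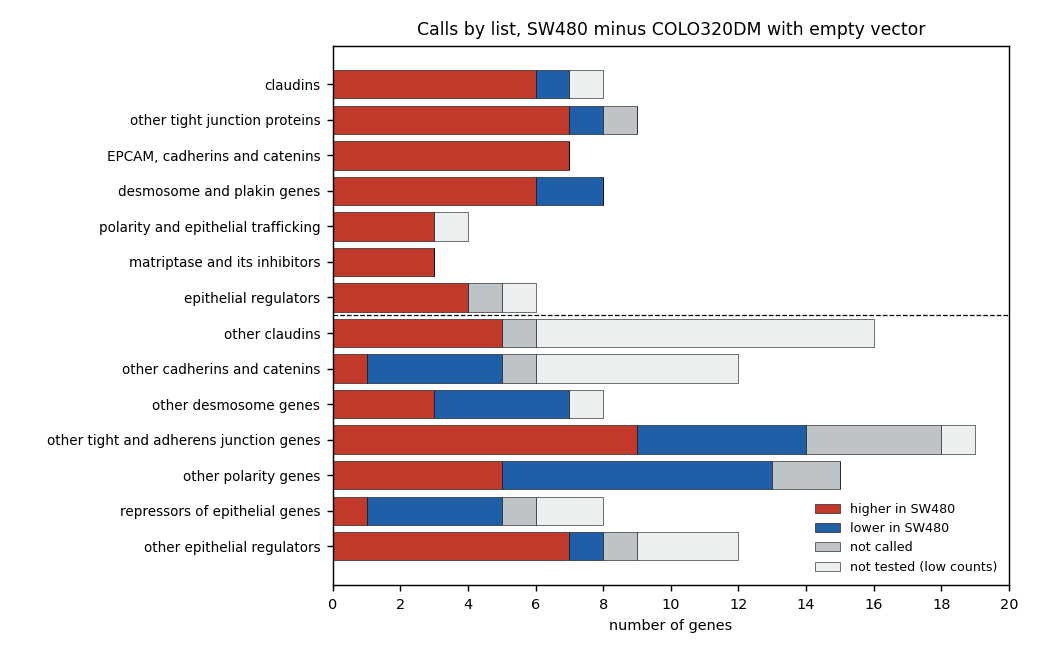
Number of genes called higher, called lower, not called and not tested in SW480 minus COLO320DM with empty vector, for the 7 roles of the 45 genes (above the dashed line) and the 7 further lists of 90 genes (below it). The roles hold 36 genes higher and 4 lower, and the further lists 31 higher and 26 lower. Over all genes tested, 37.3% were higher and 34.3% lower.

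None of the 42 genes passed the test for the HKDC1 plasmid in the fits of all 12 libraries. The main fit had no replicate block, so the shift of replicate 1 stayed in its spread between libraries. A lack of calls therefore does not show that the plasmid had no effect on these genes. In SW480 and in COLO320DM, 0 were called by edgeR at adjusted p under 0.05, and 0 in the difference between the lines' effects (0.0127%, 0.00844% and 0.00844% of all genes). DESeq2 and limma-voom called 0 as well in each, and so did edgeR with a replicate block (0.76%, 0.076% and 0.0422% of all genes). At an unadjusted p under 0.05 there were 2 genes in SW480 and 1 in COLO320DM of the 42, and 0 for the difference (1.5%, 1.32% and 1.6% of all genes). The median log2 difference of the 42 genes, HKDC1 plasmid minus empty vector, was −0.03 in SW480 and −0.01 in COLO320DM.

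In SW480 the smallest unadjusted p-values were those of CGNL1, PPL and GRHL1. CGNL1 had 22.9, 21.8 and 21.6 CPM with the HKDC1 plasmid, against 20.9, 16.6 and 16.7 CPM with empty vector. Every HKDC1 library was the higher one, and the difference of 0.29 (SE 0.12) did not pass the edgeR test (adjusted p = 1; 0.112 with the replicate block). PPL had 30.8, 29.4 and 30.6 CPM with the plasmid, against 34, 38.3 and 36.5 CPM with empty vector. Every HKDC1 library was the lower one, and the difference of −0.26 (SE 0.12) did not pass either (adjusted p = 1; 0.105 with the replicate block). GRHL1 differed by −0.20 (SE 0.14, edgeR adjusted p = 1; 0.331 with the replicate block), and its groups overlapped. Without replicate 1 of every group, 4 of the 42 genes were called in SW480 (3.03% of all genes): CGNL1 (0.36, edgeR adjusted p = 0.0276) was higher, and PPL (−0.34, 0.0209), SPINT1 (−0.28, 0.0357) and ESRP1 (−0.23, 0.0347) were lower with the plasmid. In COLO320DM that fit called 0 of the 42 (0.0337% of all genes), and for the difference between the lines 0 (0.316%).

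In COLO320DM the rule named PKP3, OVOL1 and CGNL1. PKP3 had 2, 0 and 0 counts with the HKDC1 plasmid, against 1, 4 and 4 counts with empty vector, and OVOL1 had 2, 3 and 1 counts against 2, 10 and 4. They rest on 11 and 22 reads in 6 libraries, their groups overlapped, and neither passed the edgeR test (−1.80, SE 0.82 and −1.17, SE 0.73, adjusted p = 1 each). CGNL1 had 6.71, 6.21 and 7.47 CPM with the plasmid, against 5.70, 6.36 and 5.74 CPM with empty vector (0.19, SE 0.12, edgeR adjusted p = 1). EPCAM differed by 0.03 (SE 0.14) in SW480 and 0.10 (SE 0.19) in COLO320DM, and CDH1 by −0.16 (SE 0.41) in SW480 (edgeR adjusted p = 1 each).

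**Figure D5:**
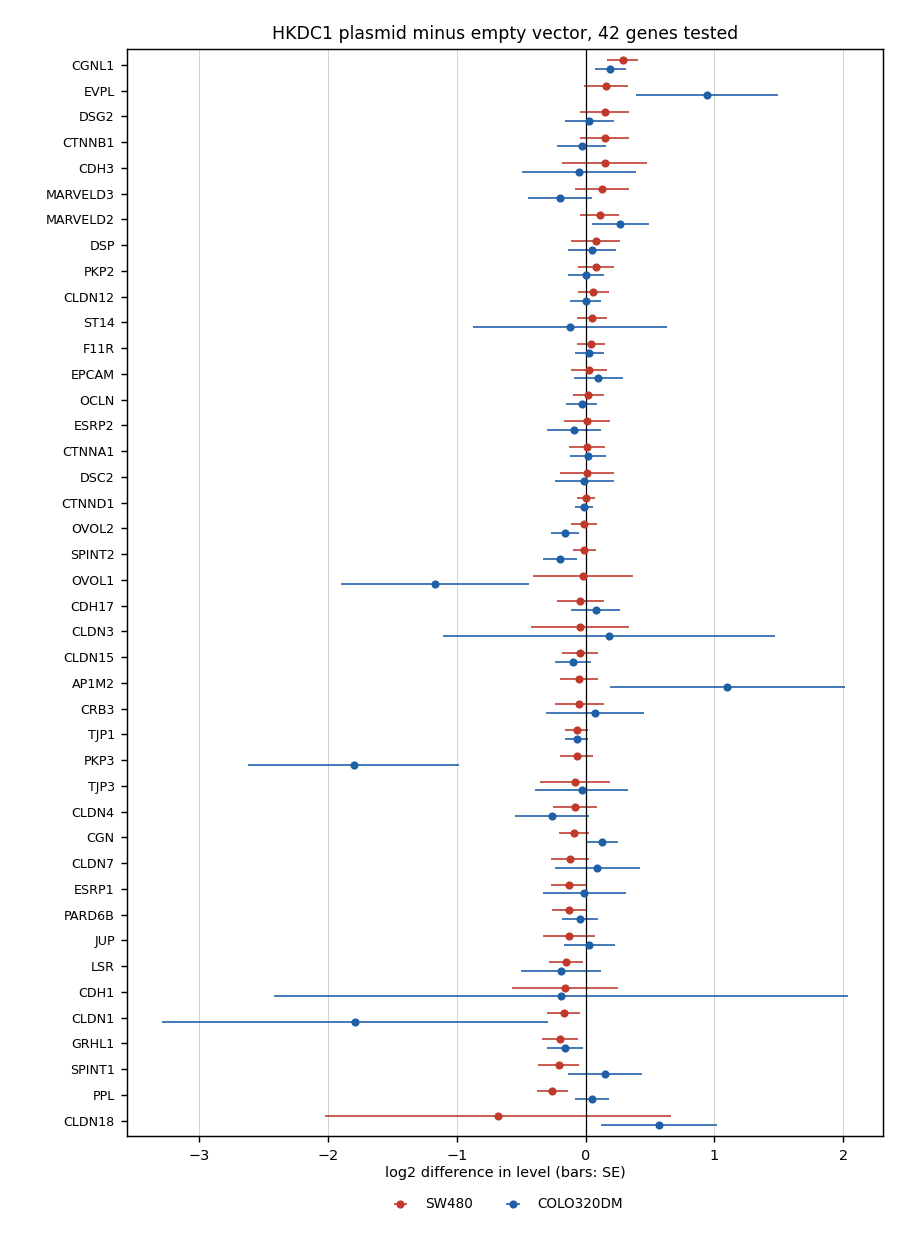
Log2 difference in level, HKDC1 plasmid minus empty vector, with bars of 1 standard error, for the 42 genes tested in each line, sorted by the value in SW480. Values in SW480 run from −0.68 (CLDN18, at 0 to 2 reads per library) to 0.29 (CGNL1), and wide bars in COLO320DM belong to genes with few reads there.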

How the data were processed

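RNA was sequenced in 12 libraries, and the authors deposited raw counts per gene as 1 table with Ensembl identifiers, exon positions and exon length. HISAT2 2.1.0, limma and the build GRCh38 are named per the submitters' processing notes, and the labels' protocols describe poly-A selection with random-primed cDNA and no step that marks strand. The counter, its strand setting and the annotation release are not given in the sources used here, so reads of overlapping and antisense genes cannot be told apart. Of the 60623 identifiers, 60295 had a symbol in the reference table.

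Genes were kept by filterByExpr (count of 10, total of 15), which left 23684, and scaled by TMM. A mean was fitted for each of the 4 groups over the 12 libraries at once in edgeR 4.0.16 under R 4.3.3, leaving 8 degrees of freedom and a coefficient of variation between libraries of 0.157, and robust quasi-likelihood F tests were used. Benjamini-Hochberg adjusted p-values under 0.05, over all genes tested, were called. CPM and RPKM were computed from the counts with TMM-scaled totals and the deposited exon length. SE is the log2 difference divided by the square root of F. Where reads are few, that difference depends on the prior count, and the SE can be too small for its error. Ratios of summed counts carry exact 95% counting intervals, and a group at 0 was set to a floor of 3 counts for the whole group. Intervals and floors cover counting error only. Total counts of 33790733 to 45451279 per library limit what can be seen for genes of a few reads. The script was tested on simulated data for the comparison of the lines with empty vector only. The simulation held no shift of replicate 1, so it does not show how the tests behave with such a shift. Promoter sequences are from RefSeq, GRCh38.p14, and a printed stretch has at most 3 bases in an exon of the deposited table or of GENCODE.

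The labels do not say whether replicates are separate cultures, so p-values measure the spread between these libraries, which may be technical. Deviations of same-numbered libraries correlated at 0.72, 0.44 and 0.31 in SW480 and 0.40, 0.13 and 0.12 in COLO320DM, so, with all 3 pairs over 0.1, numbers were taken to pair libraries within a line. Replicates 2 and 3 across the plasmids correlated about as highly, at 0.37 and 0.47 in SW480 and 0.15 and 0.16 in COLO320DM, so the numbers set replicate 1 apart and do not tell replicates 2 and 3 from each other. Between the lines they correlated at 0.02 to 0.15, and numbers were not taken to pair them. The alternatives were other scaling factors, no filter, DESeq2 1.42.0, limma-voom 3.58.1, each library left out, replicate 1 left out of every group, a replicate block and fits of 6 libraries. For SW480 against COLO320DM the block was a replicate factor shared by both lines, although numbers were not taken to pair the lines. For the plasmid it was a replicate block within each line.

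Values in every library are given for EPCAM, CDH1 and, in each role, the 3 called genes furthest apart with empty vector, those called against the majority of the role and those not called. For the plasmid they are given for called genes or, with none, the 3 of smallest p per line, and of each further list the 2 genes furthest apart in each direction are named. Some genes that these rules name are not reported here. The 45 genes, the roles, the further lists, the markers and the tests were chosen with earlier results of these data known.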

Additional observations from a re-analysis of the deposited data

How the results depend on the processing

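Over 21 alternatives, 38 of the 42 genes with empty vector and 39 with the HKDC1 plasmid kept their direction and their side of the threshold in SW480 against COLO320DM, and the exceptions were CLDN15, PKP2, GRHL1 and F11R. With the HKDC1 plasmid, the number of genes lower in SW480 was 5 with upper quartile factors and 5 with library totals only, against 3, and 3 to 6 when libraries were left out. With the replicate block shared by both lines it was 4, and with empty vector 5 against 4. GRHL1 and PKP2 stand on the threshold, and the cause was not tested. Leaving out libraries gave 0 to 4 genes called for the plasmid in SW480.

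F11R lay at 0 and changed sign. With the HKDC1 plasmid it was −0.02 with upper quartile factors, −0.08 with library totals only and −0.00046 with no filter, and −0.17 to 0.06 when libraries were left out. With empty vector it was −0.02, −0.09 and −0.01 in the same order, −0.0036 with limma-voom and −0.0039 with the replicate block, and −0.12 to 0.05 when libraries were left out. Genes with 0 to 4 reads per COLO320DM library, such as CLDN1, CDH1, PKP3, AP1M2 and ST14, have fitted values that depend on the prior count, and depth limits them to the ratios and bounds given.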
